A study of Mus musculus with 14 samples.

Results

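Histone H3 lysine 9 acetylation (H3K9ac) was examined at 55 genes used as markers of 4 non-hepatocyte cell groups of the liver: 13 macrophage, 18 endothelial, 14 stellate or fibroblast and 10 biliary genes. The genes were taken from a list of names, and a peak was assigned to a gene when it overlapped the gene's RefSeq span extended by 2 kb on each side. All 55 were found among the 21900 protein-coding genes of the annotation, and 42 of them had a peak in at least 1 library. ChIP-seq, the sequencing of DNA pulled down with an antibody to the mark, had been done on regenerating liver of male C57BL6/J mice, 2 to 3 months old, harvested 12 h after partial hepatectomy (PH), the surgical removal of part of the liver. The study asked what happens to the mark when the fall in blood glucose after PH is delayed. The libraries fall into 6 titled d22 and 6 titled pbs. Title and treatment label disagree, since d22 libraries are labelled as vehicle (diluted PBS) and pbs libraries as 22.5% dextrose in vehicle. Libraries are therefore called by their titles, differences are taken as d22 minus pbs, and neither title is assigned a treatment. The 2 pooled input libraries were not analysed here. The labels do not state whether the 6 libraries of a title are separate mice, and p-values therefore reflect the variation among libraries, part of which may be technical.

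H3K9ac is placed on histones near the promoters and enhancers of genes in use, so the genes of a cell type are acetylated mainly in that cell type. In liver the bulk of the chromatin comes from hepatocytes. The sinusoids are lined by a fenestrated endothelium that takes up waste from the blood through scavenger receptors. Kupffer cells are the resident macrophages, stellate cells store vitamin A and make collagen after injury, and cholangiocytes line the bile ducts. In whole tissue, fewer cells of a type and less of the mark per cell cannot be told apart.

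After filtering, 6343891 (d22 4) to 13259411 (pbs 1) tags remained per library, and 12362 to 13469 protein-coding genes had a peak. The peaks of d22 4 numbered 44585, and those of the remaining 11 libraries 26352 to 30780. Library d22 4 also had the most of the 55 genes with a peak, 33, followed by pbs 6 with 31, and the other 10 libraries had 21 to 28. All 20 genes of a hepatocyte list had a peak in every library, whereas 21 of 30 genes typical of tissues other than liver had none in any.

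The promoter letters are shown for the single gene whose RefSeq promoter window lay under a peak in all 12 libraries, Egfl7, and for the first gene of each cell group, in list order, whose window lay under a peak in none. Each window runs from 250 bases before to 50 after an annotated start (RefSeq, GRCm38.p6), is written 5′ to 3′ on the gene's strand, and has its CG dinucleotides in capitals. The Egfl7 window lies at chr2:26586386-26586685 (plus strand), that of Clec4f at chr6:83656067-83656366 (minus strand), that of Tie1 at chr4:118489800-118490099 (minus strand), that of Des at chr1:75360042-75360341 (plus strand) and that of Krt7 at chr15:101412153-101412452 (plus strand).
Egfl7: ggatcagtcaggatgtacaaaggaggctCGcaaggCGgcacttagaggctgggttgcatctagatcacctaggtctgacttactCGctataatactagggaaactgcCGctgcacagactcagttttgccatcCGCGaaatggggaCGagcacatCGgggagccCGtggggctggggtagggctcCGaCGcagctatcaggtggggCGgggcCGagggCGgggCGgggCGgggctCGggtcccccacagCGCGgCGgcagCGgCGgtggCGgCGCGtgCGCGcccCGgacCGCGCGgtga
Clec4f: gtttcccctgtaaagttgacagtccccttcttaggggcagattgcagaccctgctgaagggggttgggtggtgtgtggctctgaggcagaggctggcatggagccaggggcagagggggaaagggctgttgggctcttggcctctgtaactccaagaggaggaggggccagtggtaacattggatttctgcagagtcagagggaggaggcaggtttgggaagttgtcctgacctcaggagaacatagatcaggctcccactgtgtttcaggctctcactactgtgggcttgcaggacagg
Tie1: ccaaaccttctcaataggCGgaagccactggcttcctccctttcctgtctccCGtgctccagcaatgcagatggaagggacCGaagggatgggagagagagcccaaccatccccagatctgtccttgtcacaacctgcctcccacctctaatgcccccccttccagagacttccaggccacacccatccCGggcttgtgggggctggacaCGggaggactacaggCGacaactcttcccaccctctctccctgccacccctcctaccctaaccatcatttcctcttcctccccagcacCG
Des: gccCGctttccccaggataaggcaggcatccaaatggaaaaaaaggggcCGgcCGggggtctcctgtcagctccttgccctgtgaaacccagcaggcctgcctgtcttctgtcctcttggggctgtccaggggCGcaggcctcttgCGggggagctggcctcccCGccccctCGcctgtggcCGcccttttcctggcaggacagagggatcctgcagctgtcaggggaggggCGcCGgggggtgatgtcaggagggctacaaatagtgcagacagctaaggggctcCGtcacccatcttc
Krt7: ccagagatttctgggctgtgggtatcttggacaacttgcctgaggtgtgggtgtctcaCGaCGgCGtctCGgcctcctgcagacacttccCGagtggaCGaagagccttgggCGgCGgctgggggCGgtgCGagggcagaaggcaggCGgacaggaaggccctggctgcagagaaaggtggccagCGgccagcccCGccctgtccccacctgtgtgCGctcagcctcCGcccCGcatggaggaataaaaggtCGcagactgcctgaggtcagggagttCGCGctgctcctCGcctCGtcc
The Egfl7 window holds 31 CG dinucleotides, Krt7 21, Des 11, Tie1 7 and Clec4f 0. The observed over expected CG ratio was 0.945 at Egfl7, 0.641 at Krt7, 0.344 at Des, 0.289 at Tie1 and 0 at Clec4f, beside a median of 0.606 over 17492 promoters. The other 2 annotated windows of Egfl7 had ratios of 0.197 (under a peak in 5 d22 and 4 pbs libraries) and 0.311 (5 and 5). The 5 windows were picked by peak presence, and a link of CG content to peaks was not tested. Exact letters of 3 motifs were searched on both strands. The ETS motif CCGGAAG was in 12.3% of the 17492 promoters. The PU.1-type ETS motif GAGGAAG, which shares its last 5 letters with the first, was in 13.5%, and the TATA box motif TATAAA in 13.1%. Of the 5 windows shown, only that of Tie1 held a match, to the PU.1-type motif. The promoter table holds 39 of the 55 genes, too few for a check of promoter letters over the list, which is therefore void.

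The listed genes of the 4 cell groups were seen to very different extents, less so in the further genes of these groups given below. A peak in all 12 libraries was found at 12 of 18 endothelial genes, 1 of 13 macrophage genes, 1 of 14 stellate or fibroblast genes and 1 of 10 biliary genes, 15 of 55 together. The background was 51.7% of all protein-coding genes with a peak in all 12 libraries, so the endothelial genes (66.7%) lay above it and the macrophage (7.69%), stellate or fibroblast (7.14%) and biliary genes (10%) below it. A peak in 1 to 11 libraries was found at 27 of the 55 genes (background 15.7%), and no peak at 13 (background 32.6%). The endothelial group was the only one of the 4 without a gene at which no peak was called. With only peaks of a caller score of at least 100 (score 50 is the caller's minimum), 9 of the 55 genes kept a peak in every library. This was 16.4% of the 55, against 46.7% of all protein-coding genes. Of the 9 genes, 7 were endothelial. At that score the endothelial share was 38.9%, below the background and no longer above it. Without d22 4, pbs 1 and pbs 6, 15 genes had a peak in each of the 9 remaining libraries and 38 in at least 1. The same counts over all protein-coding genes were not made, and the background shares above, for 12 libraries, are not like for like.

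**Figure D1:**
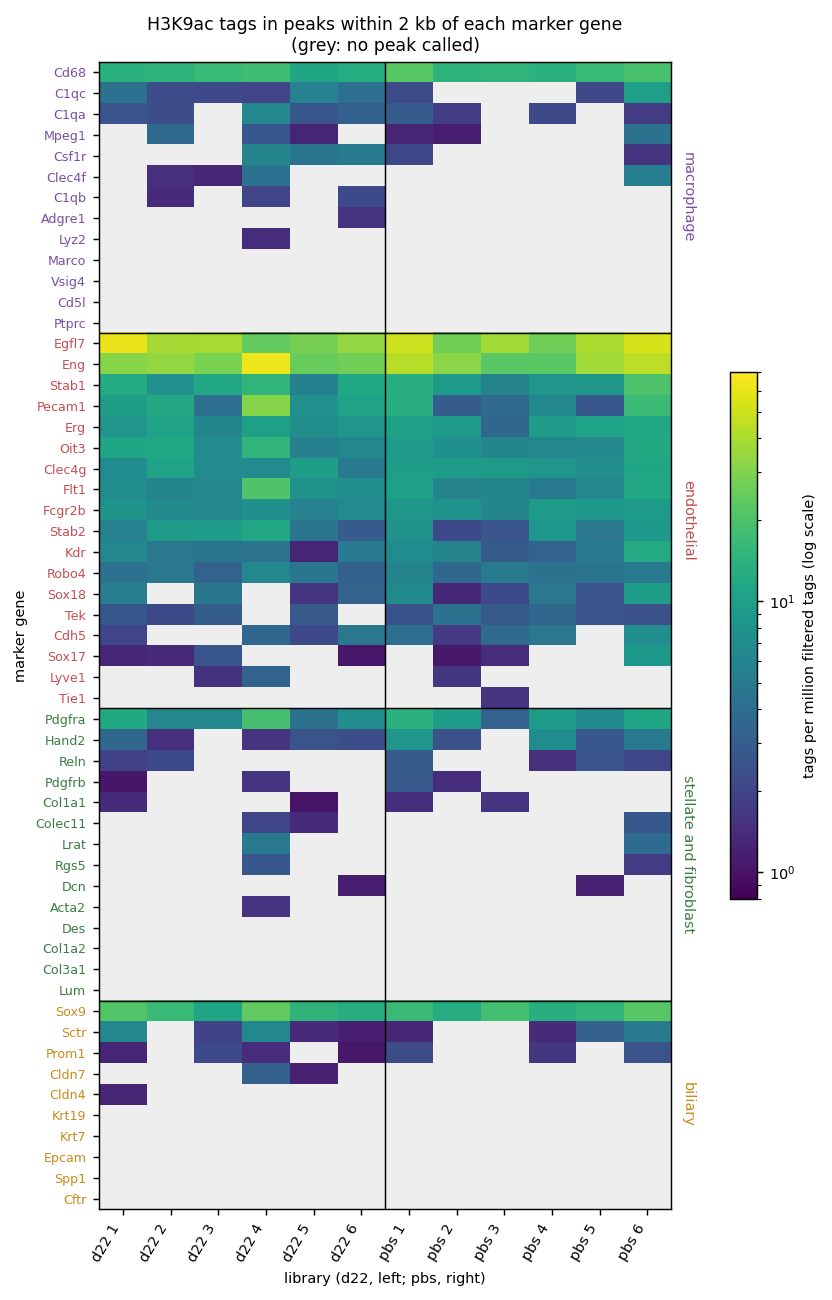
H3K9ac tags per 1000000 filtered tags (RPM, colour, log scale) in the peaks within 2 kb of each of the 55 genes (rows, grouped by cell type) in the 6 d22 libraries (left) and the 6 pbs libraries (right), with grey where no peak was called. The endothelial block is filled almost throughout, and 12 of its 18 genes have a peak in all 12 libraries. The other 3 blocks have 1 such gene each.

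Among the endothelial genes with a peak in every library were both vascular endothelial growth factor receptors (Kdr and Flt1), the scavenger receptors Stab1 and Stab2, the lectin Clec4g and the Fc receptor Fcgr2b of sinusoidal cells, the TGF-beta co-receptor Eng, the adhesion molecule Pecam1, the guidance receptor Robo4, the ETS transcription factor Erg, the secreted factor Egfl7, and Oit3. The most tags lay at Egfl7, with 23.8 to 60.9 RPM (median 36.2) in d22 and 26.4 to 53.6 RPM (median 39.0) in pbs, where RPM is tags in peaks per 1000000 filtered tags of the library. Eng had 24.6 to 62.6 RPM (median 30.0) in d22 and 22.2 to 44.9 (median 35.1) in pbs. Stab1 had 5.74 to 14.8 RPM (median 11.5) in d22 and 5.95 to 20.1 (median 8.87) in pbs. The ranges of the titles overlapped at all 3 genes, and the highest d22 value at Eng came from d22 4. Because wide domains gather more tags, genes were compared per kb of called peak. On that scale the median over libraries was 2.98 (Pecam1) to 3.88 (Egfl7) RPM per kb among the 12 endothelial genes with a peak in every library, a narrower span than that of their summed tags. With means over libraries, the median of these genes was 3.50, below the 6.22 of all protein-coding genes called in every library.

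The other 6 endothelial genes were called in part of the libraries. Tek, the angiopoietin receptor, and the transcription factor Sox18 each had a peak in 4 d22 and 6 pbs libraries. Cdh5, the cadherin of endothelial junctions, was called in 4 d22 and 5 pbs libraries, Sox17 in 4 and 3, and Lyve1, a hyaluronan receptor, in 2 and 1. Tie1 was called in pbs 3 alone, with 10 tags.

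Of the macrophage genes, Cd68, a lysosomal glycoprotein, was the only one with a peak in every library. Its RPM were 11.1 to 17.5 (median 14.1) in d22 and 13.9 to 21.9 (median 15.7) in pbs, and the titles overlapped. Most of those tags did not lie on Cd68. The region called in all 12 libraries, chr11:69660494-69663574, covers the annotated start of the neighbouring gene Mpdu1 and held 1718 tags over the libraries. A second region, which reaches Cd68's own start at its edge, was called in 10 libraries and held 283 tags. Cd68's promoter window itself lay under a peak in only 2 d22 and 1 pbs libraries. Counting only peaks on the gene span itself, Cd68 had a peak in 5 d22 and 5 pbs libraries, and none of the 13 macrophage genes had one in all 12.

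The complement C1q genes, which encode the chains of the protein that starts the classical complement pathway, form a cluster on chromosome 4. C1qc had a peak in 6 d22 libraries (2.05 to 5.82 RPM, median 3.19) and in 3 pbs libraries (2.10, 2.26 and 9.94). C1qa had a peak in 5 d22 libraries (2.30 to 6.31, median 2.63) and 4 pbs libraries (1.75 to 2.94, median 1.97). C1qb had one in d22 2, d22 4 and d22 6 (1.36, 2.05 and 2.14) and in no pbs library. These are adjacent genes, and 1 of the regions near C1qb, called in 2 libraries, is also counted for C1qc. Csf1r, the receptor for colony stimulating factor, had a peak in 3 d22 and 2 pbs libraries, Clec4f, a Kupffer cell lectin, in 3 and 1, and Mpeg1, a pore-forming protein of phagocytes, in 3 and 3. Adgre1, the F4/80 antigen, was called in d22 6 alone (16 tags) and Lyz2, a lysozyme, in d22 4 alone (9 tags). Marco, Vsig4, Cd5l and Ptprc, the pan-leukocyte antigen CD45, had no peak in any library.

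Of the stellate and fibroblast genes, Pdgfra, a receptor for platelet-derived growth factor, had a peak in every library, with 4.23 to 18.8 RPM (median 6.79) in d22 and 3.29 to 14.0 (median 9.48) in pbs. Hand2, a transcription factor of stellate cells, was called in 5 d22 libraries (1.46 to 3.49, median 2.34) and 5 pbs libraries (2.43 to 8.22, median 4.85). Reln, which encodes the secreted protein reelin, was called in 2 d22 libraries (1.95 and 2.20) and 4 pbs libraries (1.52 to 2.94, median 2.31). The titles overlapped at all 3 genes. Lrat, the enzyme that esterifies retinol for storage, was called only in d22 4 (31 tags) and pbs 6 (46 tags), the libraries with the most of the 55 genes called. Col1a1 was called in 2 d22 and 2 pbs libraries with 10 to 19 tags, and Acta2, smooth muscle actin, in d22 4 alone with 10. Des, Col1a2, Col3a1 and Lum, which encode desmin, fibrillar collagen chains and a proteoglycan, had no peak in any library.

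Of the biliary genes, Sox9, a transcription factor of cholangiocytes and of progenitor-like cells, had a peak in every library, with 11.2 to 23.3 RPM (median 15.5) in d22 and 12.8 to 21.7 (median 15.8) in pbs. At 5.75 RPM per kb its peaks were the densest of the 15 genes called in every library. As a mean over libraries its density was 5.70, below the median of 6.22 over all protein-coding genes called in every library. Sctr, the secretin receptor, was called in 5 d22 libraries (1.17 to 6.46, median 1.99) and 4 pbs libraries (1.28 to 5.01, median 2.27), and Prom1 in 4 d22 and 3 pbs libraries. Cldn7, a tight junction protein, was called in d22 4 and d22 5 (3.15 and 1.20) and in no pbs library, and Cldn4 in d22 1 alone (16 tags). The keratins Krt19 and Krt7, the adhesion molecule Epcam, Spp1 and the chloride channel Cftr had no peak in any library. A missing peak is not a count of 0, since tags below the caller's threshold are not listed.

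**Figure D2:**
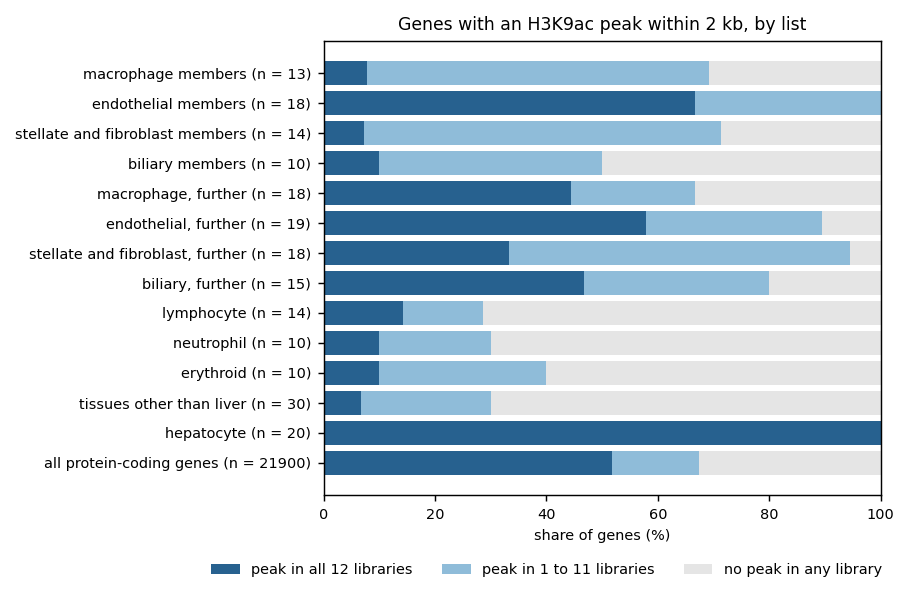
Share of genes (percent) with an H3K9ac peak within 2 kb in all 12 libraries (dark blue), in 1 to 11 (light blue) or in none (grey), for the 4 cell groups, further genes of the same cell types, other lists and all protein-coding genes. The endothelial genes have 66.7% in all 12 libraries, against 7.14% to 10% for the other 3 groups and 51.7% of all protein-coding genes. Among the further genes the shares are 57.9% for the endothelial list and 33.3% to 46.7% for the other 3.

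Where the peaks lay could be measured against an annotated start for part of the genes. The peak with the most tags had its summit at a median of 399 bp inside the start of Flt1, 681 bp inside that of Stab1, 663 bp inside that of Clec4g, 440 bp inside that of Eng and 438.5 bp inside that of Robo4. For Flt1 and Robo4 this was within 1 kb of the start in all 12 libraries. The summit was within 1 kb in 11 libraries at Clec4g (up to 2269 bp), 9 at Stab1 (up to 1880 bp) and 7 at Eng (up to 8032 bp). At Pdgfra the median distance was 2958 bp (805 to 4393 bp, within 1 kb in 1 of 12 libraries). Erg has 3 annotated starts, and the median distance to the nearest was 2470.5 bp (437 to 3439 bp, within 1 kb in 4 of 12 libraries). That start lies inside the gene's longest span, and no promoter window of Erg lay under a peak. At Stab2 the summit lay within 1 kb of the start in 5 of 12 libraries, and up to 128820 bp into the gene. The Egfl7 region is 18388 bp wide and reaches into the neighbouring gene Agpat2, so part of its tags cannot be given to one gene or the other. The median fold enrichment that the authors' caller gave was 11.8 for endothelial, 12.1 for macrophage, 11.3 for stellate or fibroblast and 12.7 for biliary peaks, against 15.6 over all 357969 peaks.

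Presence of a peak was then compared between d22 and pbs libraries. Peaks were called against 1 pooled input per title, so input and title cannot be told apart in any count of called genes by title. Fisher's exact test was run on protein-coding genes called in 2 to 10 of the 12 libraries, with Benjamini-Hochberg adjustment over all of them. None of 2039 genes passed at an adjusted p under 0.05 (0.0%), and 9 had an unadjusted p under 0.05 (0.441%). The smallest p that Fisher's exact test can give for 6 against 6 libraries is 0.00216. After adjustment over 2039 genes, no gene could pass on its own, even if called in every library of 1 title alone. The absence of passing genes therefore says little about differences in presence. Of the 55 genes 22 could be tested, and none passed. The smallest unadjusted exact p was 0.182, at C1qb (3 d22 and 0 pbs libraries) and C1qc (6 and 3), with an adjusted p of 1. The next largest differences, 2 libraries, were at Cldn7, Clec4f, Reln, Sox18 and Tek. In all, 15 of the 55 genes had a peak in more d22 than pbs libraries (background 7.53%) and 5 in more pbs than d22 libraries (background 5.56%). Genes called in every library or in none cannot differ in this count. Genes called in 1 to 11 libraries made up 27 of the 55, but only 15.7% of all protein-coding genes. The 2 background shares are therefore not like for like. Of the 3443 protein-coding genes called in 1 to 11 libraries, 1648 had more d22 and 1217 more pbs libraries.

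Of the macrophage genes, 8 were called in 1 to 11 libraries. The split was 7 with more d22 libraries and 0 with more pbs libraries, against 1648 and 1217 over all protein-coding genes. The 7 include Adgre1 and Lyz2, each called in 1 library, and the 3 adjacent C1q genes. They are therefore not 7 independent observations. The number of macrophage genes called was 3 to 8 per library (median 5.5) in d22 and 1 to 6 (median 2.5) in pbs, and the titles overlapped. The highest d22 number, 8, was that of d22 4, and the highest pbs number, 6, that of pbs 6. Without these 2 libraries, left out after the data were seen, the split was 6 and 0 for the macrophage genes and 12 and 6 for all 55. The same count over all protein-coding genes was not made. The RPM summed over the macrophage genes were 19.9 to 42.4 (median 25.4) in d22 and 14.9 to 42.3 (median 17.9) in pbs. For the endothelial genes the sum was 119 to 221 (median 152) in d22 and 123 to 245 (median 140) in pbs. For the stellate and fibroblast genes it was 6.34 to 33.1 (median 10.4) in d22 and 4.85 to 29.3 (median 15.7) in pbs, and for the biliary genes 15.3 to 34.4 (median 16.7) in d22 and 12.8 to 29.2 (median 18.5) in pbs. All 4 sums overlapped between the titles. The highest d22 value of each sum was that of d22 4, and the highest pbs value was that of pbs 6 except for the stellate and fibroblast genes (pbs 1). The part of these libraries in the sums was not tested.

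**Figure D3:**
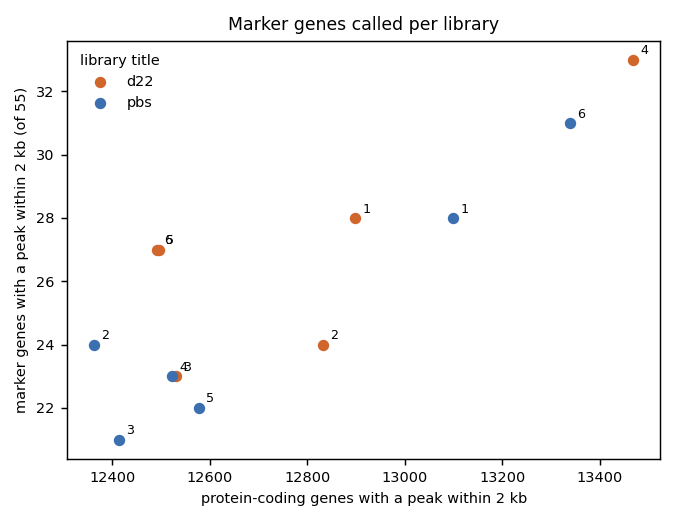
Number of the 55 genes with a peak (vertical axis) against the number of all protein-coding genes with a peak (horizontal axis) in each d22 library (orange) and pbs library (blue), labelled by replicate number. Libraries d22 4 and pbs 6, with the most genes called overall (13469 and 13338), also had the most of the 55, 33 and 31.

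Tags were compared where counts existed in every library. They were counted within peaks called against 1 pooled input per title, so here too input and title cannot be told apart. Overlapping peaks of all libraries were merged into regions, and 12375 regions had a peak in all 12. A gene was represented by its overlapping region with the most tags, which 13 of the 55 genes have: Cd68, Pdgfra, Sox9 and 10 endothelial genes. Kdr and Stab2 had a peak in every library but no single region that was called in all 12. By edgeR's quasi-likelihood test with Benjamini-Hochberg adjustment, 125 of the 12375 regions passed (1.01%), 56 higher (0.453%) and 69 lower (0.558%) in d22. None of the 13 regions passed, by edgeR or by DESeq2's Wald test, and none had an unadjusted edgeR p under 0.05 (background 10.9%). In none of them did the 6 d22 and 6 pbs libraries fail to overlap (background 1.33%).

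Oit3, a secreted protein of sinusoidal endothelium, had the smallest p. Its region, chr10:59437905-59442530, had 36.8 to 70.2 CPM (median 42.8) in d22 and 29.1 to 43.5 (median 35.1) in pbs. CPM is counts per 1000000 tags in the tested regions, with these library totals scaled by TMM, a normalization between libraries. The means were 47.3 ± 12.4 CPM in d22 and 36.3 ± 5.93 CPM in pbs (SD, n = 6 each). The highest value was that of d22 4, and the other 5 d22 libraries reached 51.9. The log2 fold change was 0.35 ± 0.17 (SE, 95% interval -0.0046 to 0.70, edgeR adjusted p = 0.463).

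In CPM, Pecam1, the platelet and endothelial adhesion molecule, varied more among pbs than among d22 libraries. Its region, chr11:106712133-106715382, at the upper end of the gene, had 14.4 to 23.5 CPM (median 20.9) in d22 and 6.38 to 33.7 CPM (median 10.1) in pbs. The 6 d22 libraries lay close together, whereas pbs 1 (22.7) lay among them, pbs 6 (33.7) above them and the other 4 pbs libraries, at 6.38 to 11.5, were below all of them. The called length ran from 799 to 1616 bp in d22 and from 439 (pbs 2) to 2558 bp (pbs 6) in pbs. Per kb of called peak, the region had 13.7 to 23.7 CPM in d22 and 13.1 to 18.2 in pbs. On that scale pbs did not vary more, and the log2 fold change was 0.15. The part of called length in the changes below was not tested. In tags, the log2 fold change was 0.34 ± 0.35 (SE, 95% interval -0.41 to 1.08, edgeR adjusted p = 0.791). Without d22 4, pbs 1 and pbs 6, the libraries with the most peaks, the most tags and the second most of the 55 genes, it was 1.22 ± 0.28 (SE, edgeR adjusted p = 0.0335), the 1 region of the 13 that passed there. This exclusion was chosen after the data were seen, and it removes the 2 highest pbs values of Pecam1. Without the 3 pbs libraries whose tags were 48 bp long (pbs 1, pbs 4 and pbs 6) it was 1.37 ± 0.29 (SE, edgeR adjusted p = 0.0699), and without pbs 6 alone 0.75 ± 0.31 (SE, edgeR adjusted p = 0.379).

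Flt1, at chr5:147724345-147727040, had 27.8 to 46.5 CPM (median 37.5) in d22 and 19.2 to 48.8 CPM (median 25.7) in pbs, with the highest pbs value again in pbs 6. Its log2 fold change was 0.27 ± 0.22 (SE, 95% interval -0.20 to 0.73, edgeR adjusted p = 0.720), and 0.62 ± 0.19 without d22 4, pbs 1 and pbs 6 (SE, edgeR adjusted p = 0.127). On the authors' fold enrichment over input, tested with limma on the log2 scale, Flt1 turned to -0.67 (limma adjusted p = 0.0237), and Clec4g, which was at -0.06 ± 0.17 (SE) in the tags, was at -0.73 (limma adjusted p = 0.00742). On that scale 18.3% of all regions passed, and the median of all regions was -0.30. Each title had 1 pooled input of its own, so input and title cannot be told apart there either. For tags per kb of called peak, 0.0404% of all regions passed by limma and none of the 13 did.

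The 2 regions with the most tags showed small differences. Egfl7, at chr2:26582492-26600879, had 215 to 286 CPM (median 256) in d22 and 172 to 268 CPM (median 239) in pbs, a log2 fold change of 0.16 ± 0.11 (SE, 95% interval -0.07 to 0.38). Eng, at chr2:32646352-32655669, had 130 to 222 CPM (median 136) in d22 and 88.7 to 166 CPM (median 141) in pbs, a log2 fold change of 0.14 ± 0.16 (SE, 95% interval -0.19 to 0.47). The titles overlapped at both.

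Outside the endothelial group, the Sox9 region, chr11:112780831-112784642, had 67.0 to 140 CPM (median 88.5) in d22 and 67.8 to 91.4 CPM (median 78.0) in pbs. Its log2 fold change was 0.26 ± 0.15 (SE, 95% interval -0.05 to 0.57, edgeR adjusted p = 0.569). The region near Cd68 had 58.9 to 91.1 CPM (median 68.9) in d22 and 63.3 to 79.3 CPM (median 70.7) in pbs, a log2 fold change of 0.03 ± 0.12 (SE, 95% interval -0.22 to 0.27). Pdgfra, at chr5:75152538-75155389, spread most, with 9.59 to 58.8 CPM (median 20.7) in d22 and 12.3 to 37.4 CPM (median 24.1) in pbs, and a log2 fold change of 0.12 ± 0.38 (SE, 95% interval -0.67 to 0.92). The other 5 regions, all endothelial, had log2 fold changes of -0.16 (Stab1) to 0.14 (Robo4).

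**Figure D4:**
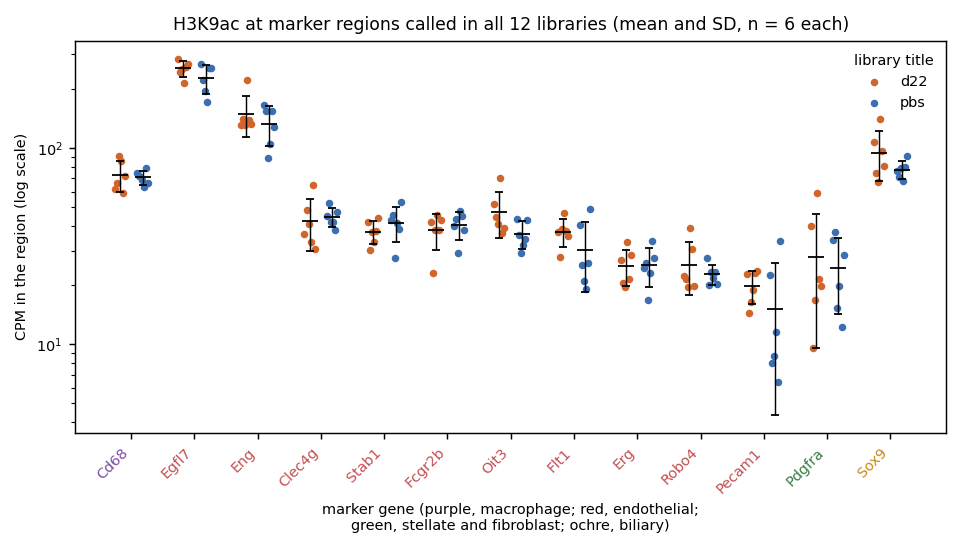
H3K9ac in counts per 1000000 tags of the tested regions (CPM, scaled by TMM, log scale) at the 13 gene regions called in all 12 libraries. Shown are 1 point per d22 library (orange, left) and pbs library (blue, right) and bars for mean and SD (n = 6 each). The titles overlap at every gene. At Pecam1 the d22 points lie between 14.4 and 23.5, and the pbs points spread over 6.38 to 33.7.

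Over the 13 regions the median log2 fold change was 0.14, with 9 positive and 4 negative, beside 0.0032 over all tested regions. For the 10 endothelial regions it was 0.14, with 6 positive and 4 negative. Over 19 hepatocyte regions it was -0.24, with 17 negative, and 1 of them passed (Pck1, the gluconeogenic enzyme, log2 fold change -0.43, edgeR adjusted p = 0.0100; named after its value was seen). The summed tags of the hepatocyte genes were 903 to 1257 RPM (median 964) in d22 and 1210 to 1626 (median 1358) in pbs. The part of the hepatocyte regions in the values of the other cell groups was not tested. With library totals in place of TMM, the scaling used above, the median of all regions moved to -0.22, and Cd68, Eng, Egfl7, Robo4 and Pdgfra took values of -0.20 to -0.07, all above that median.

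**Figure D5:**
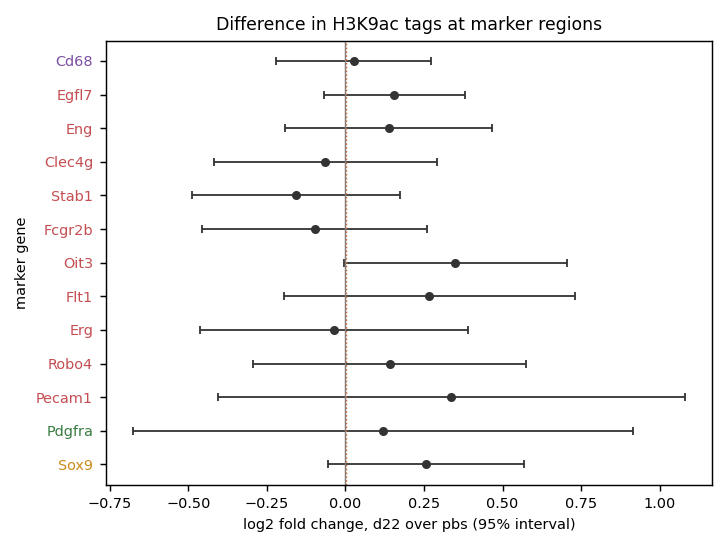
Log2 fold change, d22 over pbs, with its 95% interval (edgeR) at the 13 gene regions called in all 12 libraries, where the dotted line marks the median of all tested regions (0.0032). Every interval includes 0, from Oit3 with -0.0046 to 0.70 to Pdgfra with -0.67 to 0.92.

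Further genes of the same 4 cell groups, from lists that hold none of the 55, were counted in the same way. A peak in all 12 libraries was found at 8 of 18 further macrophage genes (44.4%) and 11 of 19 endothelial genes (57.9%). It was found at 6 of 18 stellate or fibroblast (33.3%) and 7 of 15 biliary genes (46.7%), against 51.7% of all protein-coding genes. The endothelial list again had the largest share, but the lists differed less than the 4 groups of the 55 genes. The contrast among the 55 thus depends in part on which genes were listed. None of the 30 regions of these lists tested for tags passed by edgeR in either direction, and 1 had an unadjusted p under 0.05. That region, counted for the macrophage gene Fcer1g, is also the region of the hepatocyte gene Apoa2 (named after its value was seen). The lists' median log2 fold changes were -0.02 for the macrophage, -0.02 for the endothelial, -0.07 for the stellate or fibroblast and -0.01 for the biliary list.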

How the data were processed

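Peak tables of 12 libraries were used. Per the submitters' processing notes, CASAVA 1.8, Novoalign and MACS 1.4.2 were used with mm10. Per the file headers, peak calling set every library against the pooled input of its title (12526421 tags for d22, 10409931 for pbs), at a p-value of 1e-05 with 1 tag kept per position. From the authors' deposited tables the raw count of tags per peak, the score (-10 times log10 of the p-value) and the fold enrichment ratio over background were taken. The false discovery rate in percent that the authors' caller deposited was read as a library median only and gave no result.

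Gene spans came from RefSeq (GRCm38.p6, the coordinates of mm10). At least 1 bp of a peak had to overlap the span extended by 2 kb. Overlapping peaks were merged into 57979 regions. For regions called in all 12 libraries the test was edgeR's robust quasi-likelihood test with TMM (version 4.0.16, R 4.3.3), and fold enrichment and tags per kb with limma 3.58.1. DESeq2 1.42.0 was an alternative, and Fisher's test was run in SciPy 1.17.1. The test was tried on simulated data. No libraries were duplicates (chi-square per degree of freedom 2.41 to 10.3 over 66 pairs).

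The genes, lists, tests and the naming rule were chosen with earlier results of these data known. The rule names genes that passed, the 3 of each cell group with the most tags and with the smallest p, the 5 with the largest difference in presence (ties included), and all with no peak. Other genes of the 55 were named after their values were seen.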

Additional observations from a re-analysis of the deposited data

Results flagged for a closer look

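In each title group of 6, the highest and lowest libraries were compared with the rest for 42 sets of values (library measures and tags at the gene regions), and 3 stood apart. Chance alone flags about 1 in 20 groups. The number of peaks of d22 4, 44585, stood apart from 26352 to 30698 in the other 5 d22 libraries. At the Eng region d22 4 had 222 CPM, against 130 to 141 in the other 5. At the Fcgr2b region d22 2 had 23.0 CPM, against 38.3 to 45.5 in the other 5. Without d22 4 the log2 fold change of Eng was 0.01, and without d22 2 that of Fcgr2b was 0.03, and neither passed.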

How the results depend on the processing

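The number of regions that passed was 125 with edgeR and TMM. It was 454 with library totals (26 higher, 428 lower), 272 with DESeq2, 69 in regions called in at least 10 libraries with missing peaks as 0, 5 for tags per kb of called peak, 2266 for the authors' fold enrichment (143 higher, 2123 lower), 66 for tags summed per gene, 39 without the 48 bp pbs libraries, 245 without d22 4, pbs 1 and pbs 6 (chosen after seeing the data) and 64 to 139 on leaving out each library. The replicate numbers were shared by the titles, but same-numbered libraries deviated together little (correlations -0.0063 to 0.158), and 1 of 6 d22 libraries correlated best with its own number. With the replicate as a block, 128 regions passed (65 higher, 63 lower), and none of the 13. Of the 13, none passed on leaving out any library. Those that passed were 2 for fold enrichment and 1 without d22 4, pbs 1 and pbs 6, as given above, and 0 in the other settings. Genes of the 55 with a peak in every library numbered 9 with a score of at least 100 and 15 on leaving out any library. On leaving out libraries, the share over all protein-coding genes was not counted. Fisher's test on presence gave 0 in every setting, but with so few libraries no gene could pass on its own.

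Several log2 fold changes near 0 changed sign. With library totals, where the median of all regions was -0.22, they were -0.20 (Cd68), -0.072 (Eng), -0.072 (Egfl7), -0.094 (Robo4) and -0.11 (Pdgfra). For tags per kb they were 0.33 (Clec4g), 0.21 (Fcgr2b) and 0.16 (Erg). For fold enrichment, where the median of all regions was negative as given above, they were -0.27 (Cd68), -0.13 (Pecam1), -0.67 (Flt1), 0.027 (Fcgr2b), -0.40 (Eng), -0.079 (Robo4), -0.20 (Pdgfra) and -0.47 (Sox9). For tags per gene they were -0.019 (Cd68), 0.18 (Stab1) and 0.067 (Erg). Cd68 was -0.0097 with a score of at least 100, -0.032 without the 48 bp libraries and -0.027 without d22 4, pbs 1 and pbs 6, where Clec4g was 0.016. On leaving out each library, the range was -0.048 to 0.077 for Cd68, -0.22 to 0.020 for Clec4g, -0.12 to 0.063 for Erg, -0.17 to 0.025 for Fcgr2b and -0.19 to 0.31 for Pdgfra. The causes were not tested. A gene with no peak listed has no count, so its level is not known, and the effect of depth on which peaks were listed was not tested.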

Other observations

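Blood cell genes were seldom called. A peak in all 12 libraries was found at 2 of 14 lymphocyte genes (Cd79a and Lck), 1 of 10 neutrophil genes (Csf3r) and 1 of 10 erythroid genes (Klf1), and no peak in any library at 10, 7 and 6 of them. Of 30 genes typical of tissues other than liver, 2 (Syp and Sftpc) had a peak in all 12 libraries. All 6 genes were named after their values were seen. Without the 2 kb extension, Lck, Klf1 and Syp were called in all 12 libraries, while Cd79a was called in 0 d22 and 1 pbs libraries, Csf3r in 2 and 1, and Sftpc in 5 and 4.

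Beside these lists, the summed RPM of the lymphocyte genes were 20.6 to 67.8 (median 28.4) in d22 and 21.0 to 37.7 (median 36.0) in pbs, and those of the neutrophil genes 8.66 to 15.6 (median 9.93) in d22 and 7.82 to 19.5 (median 10.2) in pbs. The erythroid genes had 9.89 to 20.3 (median 13.2) in d22 and 10.3 to 29.0 (median 15.7) in pbs. The titles overlapped in all 3 sums.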
